A study of Mus musculus with 33 samples.

Results

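RNA levels of 38 Hox genes were examined in embryonic stem cells of the mouse (mESCs) and in embryoid bodies (EBs) grown from them, out of the 37991 gene identifiers counted in each of 33 libraries. The genes were taken by name from the HoxA, HoxB, HoxC and HoxD clusters. In genome build NCBIM37 the 10 HoxA genes lie in chr6:52112350-52210874, the 10 HoxB genes in chr11:96055630-96229570, the 9 HoxC genes in chr15:102751534-102867274 and the 9 HoxD genes in chr2:74506367-74603200. By paralog number, 11 of them belong to paralogs 1 to 4, 11 to paralogs 5 to 8 and 16 to paralogs 9 to 13.

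All cells were of the E14TG2a mESC line, transfected with a Cas9 vector and a puromycin selection plasmid. Control cells were wild-type and had received the empty vector (clones #1, #4 and #7), and mutant cells carried CRISPR/Cas9 deletions in the coding region around the active site of Neil1 (clones #7, #9 and #11), Neil2 (clones #1, #11 and #14) or Apex1 (clone #46). Each genotype was sequenced as mESCs grown with leukemia inhibitory factor, as EBs harvested on day 8, and as EBs + RA, which were split from the same EBs on day 4 and received 5 µM retinoic acid (RA) from then on. Control, Neil1 and Neil2 had 3 clones per stage, whereas Apex1 was 1 clone in technical duplicates, so that the p-values of every Apex1 test leave out the spread between Apex1 clones.

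Hox genes encode homeodomain transcription factors that give cells their position along the head-to-tail axis. Within a cluster, genes at the 3′ end, which have low paralog numbers, are generally switched on first and act in hindbrain and neck, and genes at the 5′ end follow later and act in trunk, limbs and tail. RA acts through nuclear receptors on response elements close to the 3′ genes, while Cdx, Wnt and FGF factors of the posterior growth zone are known activators of trunk genes. NEIL1 and NEIL2 are DNA glycosylases and APEX1 is an endonuclease, all of the base excision repair pathway.

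Libraries held 21523742 to 48350904 counts on genes. Levels are given as CPM, counts divided by the library's total after TMM scaling and set to the usual megaread, and per kb of exon wherever different genes are compared or summed. A gene was called where edgeR's quasi-likelihood test gave an adjusted p below 0.1 and the log2 fold change exceeded 0.5 in size, adjusted by Benjamini-Hochberg over all genes tested. Neil1 RNA stood at 1.42 to 6.06 CPM in Neil1 EBs against 5.97 to 9.2 CPM in control EBs (2.51 to 31.6 against 7.67 to 9.83 in mESCs), Neil2 RNA at 6.74 to 18.3 CPM in Neil2 EBs and 6.64 to 10.7 CPM in control EBs, and Apex1 RNA at 59.7 to 85.5 CPM in Apex1 EBs and 12.5 to 16 CPM in control EBs. RNA of the targeted gene was thus not lower in the Neil2 EBs and was higher in the Apex1 EBs, and counts over a whole gene do not show whether a coding stretch is missing. Genes of chromosome X, which carries no Hox gene, gave 0.944% of the counts in the mESC library of Neil1 clone #11 and 3.14% to 4.58% in the other libraries. The 6 pluripotency markers summed to 3370 to 3650 CPM in control mESCs, 1410 to 1460 CPM in control EBs and 114 to 188 CPM in control EBs + RA. In bulk RNA, fewer cells of a type and less RNA per cell cannot be told apart.

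The direct repeats with 5 spacer bases (DR5) in the clusters are shown here, because RA receptors are known to bind such elements. The searched element was 2 repeat units in the same direction on either strand of NCBIM37, over the clusters and 5 kb on each side. A unit could be AGGTCA itself, the variant form AGTTCA, the variant form GGGTCA or the variant form GGTTCA. There was 1 match in HoxA, 3 in HoxB, 0 in HoxC and 1 in HoxD. Repeat units are in capitals, and 5 bases are printed on each side of an element, read on its own strand.
HoxA element, chr6:52125532-52125548, minus strand, in an intron of Hoxa3 and 16.2 kb downstream of the start of Hoxa4: atctcGGTTCAagaagAGTTCAcaagc
HoxB element 1, chr11:96202550-96202566, plus strand, in an intron of Hoxb3 and 24.6 kb downstream of the start of Hoxb4: atctcGGTTCAagaagAGTTCAcaagc
HoxD element, chr2:74579597-74579613, plus strand, in an intron of Hoxd3 and 19.6 kb downstream of the start of Hoxd4: ttttaGGTTCAagcagAGTTCAcaagg
HoxB element 2, chr11:96234090-96234106, plus strand, intergenic, 7.0 kb from the start of Hoxb1: ttcctGGTTCAtagagAGTTCAgctct
HoxB element 3, chr11:96073343-96073359, minus strand, intergenic, 17.7 kb from the start of Hoxb13: gagaaAGGTCAgggaaGGGTCAacacc
The HoxA element and HoxB element 1, both beyond a paralog 4 gene, shared 27 of 27 printed bases, and the HoxD element at the like position shared 22 of 27 with them. Within 5 kb of the start site, 0 of the 38 Hox genes and 819 of 22367 protein-coding genes (3.66%) had a match. A match is a description of the sequence and was not tested as a binding site.

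**Figure D1:**
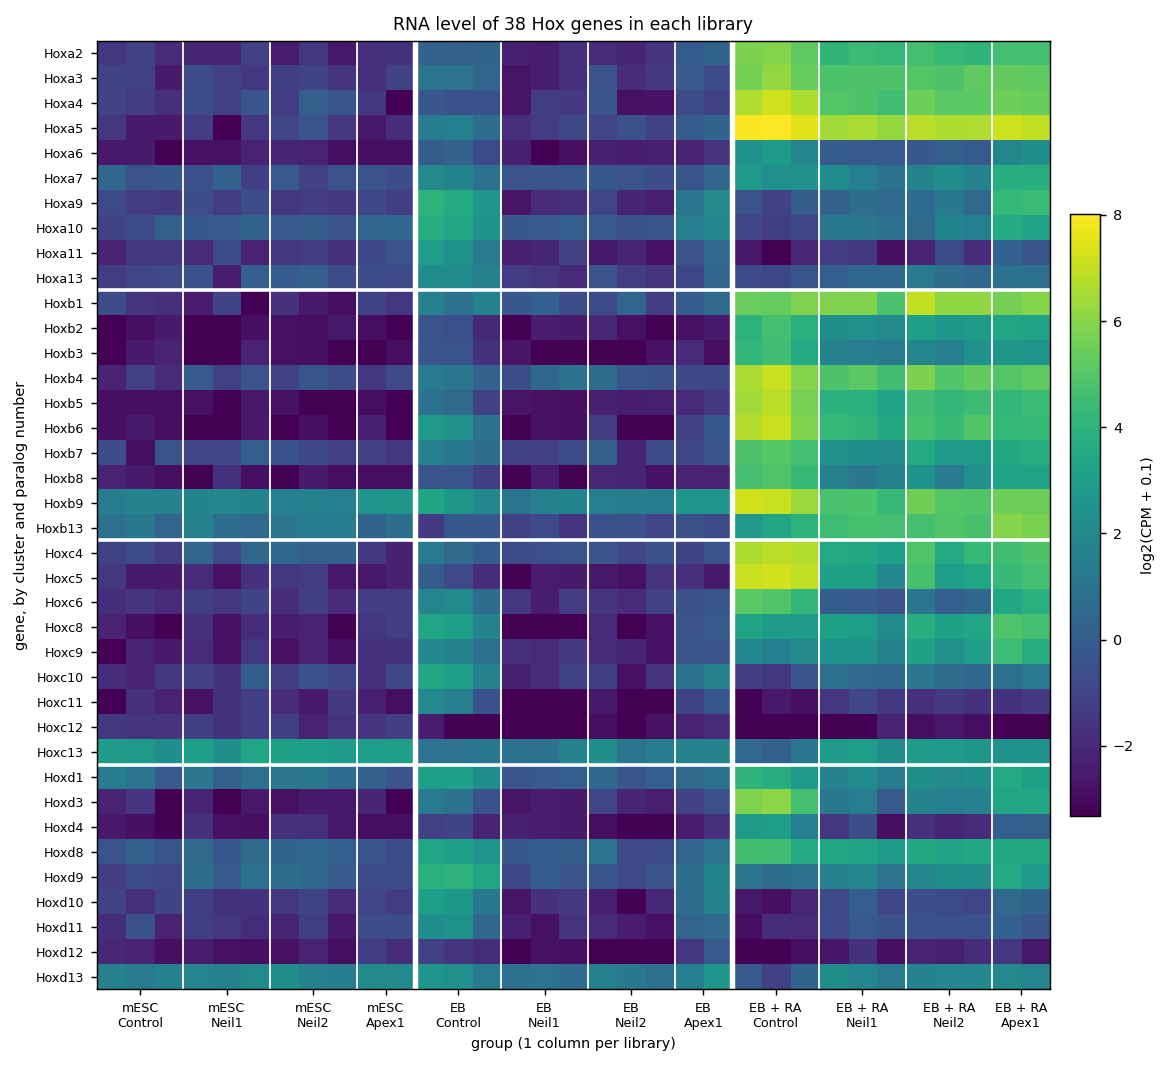
Level of each of the 38 Hox genes, shown as log2(CPM + 0.1) by colour, with genes in rows by cluster and paralog number and 1 column per library, grouped by stage and genotype. Control EBs are brighter than mutant EBs over most rows, and in EBs + RA the rows of low paralog numbers are brightest.

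In control mESCs Hox RNA was scarce, with 5 of 38 genes at a group mean of 1 CPM or more. The 38 genes together summed to 8.42 to 11.2 CPM per kb in the control mESC libraries, of which paralogs 9 to 13 made 64.8% to 76.3%. Hoxc13, which acts in hair and nail, was the highest per kb at 2.59 ± 0.639 CPM per kb (SD, n = 3). Its level was 7.34, 7.2 and 4.55 CPM in the 3 control mESC libraries, and clone #7 was the lowest of them. Hoxb9, Hoxb13, Hoxd1 and Hoxd13 were the other genes at or above 1 CPM.

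In control EBs 28 of 38 genes reached 1 CPM, and 27 of the 30 genes that passed the filter on low counts were called higher than in control mESCs, beside 18.5% of all genes tested. The 2 genes called lower, beside 20.2% of all genes tested, were Hoxb13 (-1.64 ± 0.45, log2 fold change ± SE) and Hoxc13 (-1.70 ± 0.27). The median log2 fold change of the 30 genes was 3.46, against -0.02 over all genes tested. Since a gene low in mESCs could pass the filter only through EBs, the fit without a filter on all 38 genes is given as well, with 33 genes higher and 3 lower.

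Control EBs expressed genes of all paralog classes, and their highest genes per kb were of paralogs 9 and 10. Among HoxA genes the highest was Hoxa9, which patterns the lower thoracic and lumbar region, at 3.54 ± 1.57 CPM per kb, followed by Hoxa11 at 3.16 ± 1.62. Among HoxD genes Hoxd9 stood at 6.28 ± 1.5 CPM per kb, followed by Hoxd1 at 3.81 ± 1.2. The HoxC gene Hoxc10 and the HoxB gene Hoxb9 led their clusters at 4.2 ± 2.21 and 2.57 ± 1.15 CPM per kb, followed by Hoxc8 (3.12 ± 1.53) and Hoxb6 (2.23 ± 1.28). In each cluster the mean ± SD ranges of the first and second gene overlapped. Per library, Hoxa9 reached 16.3, 12.6 and 6.11 CPM in control EBs of clones #1, #4 and #7, Hoxd9 14.7, 16.4 and 10 CPM and Hoxc10 10.6, 8.27 and 3.09 CPM. The clone #7 library was the lowest of the 3 for each of these genes, and over the 38 genes its sum was 32.1 CPM per kb, against 72.5 and 61.4 in clones #1 and #4.

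RA changed which genes were expressed in control EBs. Genes of paralogs 1 to 4 all rose, with Hoxd1 the least certain, and genes of paralogs 9 to 13 in HoxA, HoxC and HoxD fell or showed no called change, whereas the whole HoxB cluster rose. Of 36 genes tested, 23 were higher, beside 23.3% of all genes tested, and 10 were lower, beside 20.7%. The median log2 fold change was 3.44, against 0.01 over all genes tested, and the fit without a filter on 38 genes gave 22 higher and 11 lower. Rank correlation of paralog number and log2 fold change over these 36 genes was -0.71 (Spearman, a description, since neighbouring genes share libraries and clusters).

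**Figure D2:**
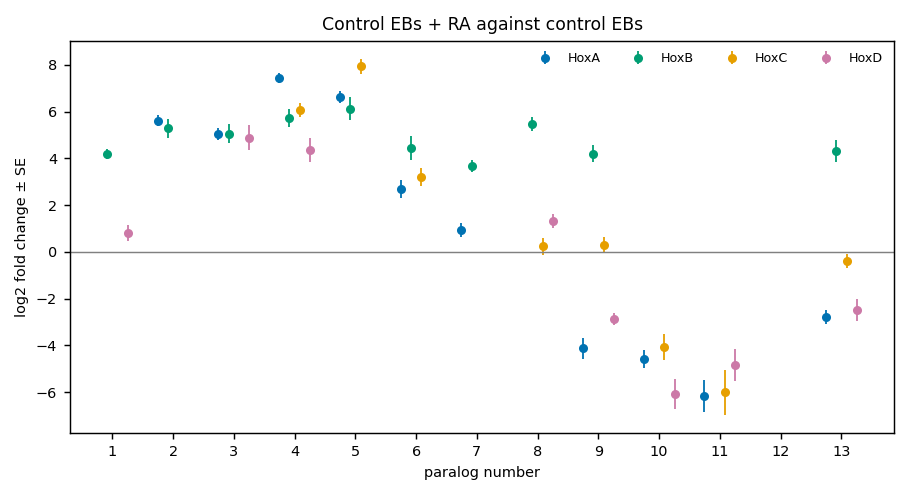
Log2 fold change of control EBs + RA against control EBs (points, with SE as bars) for 36 Hox genes by paralog number, coloured by cluster. All HoxB points lie above 0, from 3.67 to 6.12, while the HoxA, HoxC and HoxD points of paralogs 10 and 11 lie between -6.17 and -4.06.

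With RA the highest levels per kb were those of genes that act in the neck and upper trunk. Hoxa5, which acts in the cervical and upper thoracic region and in lung, was the highest HoxA gene in control EBs + RA, at 119.8 ± 21.8 CPM per kb against 71.9 ± 16.2 for Hoxa4. It measured 2.62, 2.85 and 1.54 CPM in control EBs and 237, 258 and 179 CPM in control EBs + RA. The highest HoxC gene was Hoxc5 (55.6 ± 5.8 CPM per kb), above Hoxc4 (41.5 ± 3.31) without overlap of the SD ranges. Hoxc5 went from 0.908, 0.468 and 0.184 to 139, 151 and 122 CPM, and the groups did not overlap for either gene. The log2 fold changes were 6.61 ± 0.25 for Hoxa5 (edgeR adjusted p = 1.0e-06) and 7.93 ± 0.34 for Hoxc5 (edgeR adjusted p = 1.9e-06).

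In HoxB and HoxD the highest genes with RA were Hoxb6, a trunk gene, and Hoxd3, which acts in the upper neck. Hoxb6 stood at 48.5 ± 19.5 CPM per kb, followed by Hoxb9 at 46.9 ± 14.6, and rose from 7, 5.15 and 1.76 to 108, 137 and 57 CPM. Hoxd3 stood at 13.2 ± 5.9 CPM per kb, followed by Hoxd8 at 7.21 ± 2.36, and rose from 2.46, 1.79 and 0.625 to 55.8, 66.7 and 24.4 CPM. Both pairs overlapped in their SD ranges, and clone #7 gave the lowest value of Hoxb6 and Hoxd3 with and without RA. Of the exon bases of Hoxd3 35.8%, and of Hoxd4 67.4%, are shared with another annotated gene, so that the split of reads between these genes is uncertain.

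The other genes of paralogs 1 to 8 that rose with RA were Hoxa2, Hoxa3, Hoxa4, Hoxa6, Hoxa7, Hoxb1, Hoxb2, Hoxb3, Hoxb4, Hoxb5, Hoxb7, Hoxb8, Hoxc4, Hoxc6, Hoxd1, Hoxd4 and Hoxd8, with log2 fold changes from 0.81 (Hoxd1) to 7.44 (Hoxa4). Hoxd1 is the weakest of these calls (edgeR adjusted p = 0.0818), and its groups overlapped. It was kept in 1 of the 6 fits that each left out 1 library, being lost without any library other than EB + RA replicate 3, with log2 fold changes of 0.52 to 1.09. The other Hox genes called in this comparison were kept in all 6 fits. Hoxc8 measured 9.96, 8.34 and 3.24 CPM without and 9.85, 7.61 and 7.47 CPM with RA, and its difference of 0.24 ± 0.36 was not called.

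Among posterior genes, Hoxb9 rose by a log2 fold change of 4.20 ± 0.37 and Hoxb13 by 4.32 ± 0.46. Hoxa9, Hoxa10, Hoxa11, Hoxa13, Hoxc10, Hoxc11, Hoxd9, Hoxd10, Hoxd11 and Hoxd13 fell, by 2.48 (Hoxd13) to 6.17 (Hoxa11) on the log2 scale. Hoxd10, a lumbosacral gene, went from 8.32, 6.51 and 2.24 CPM in control EBs to 0.0644, 0.0368 and 0.132 CPM with RA, with no overlap of the groups (edgeR adjusted p = 1.3e-04). Hoxc9 (0.30 ± 0.32) and Hoxc13 (-0.40 ± 0.30) were not called. Hoxc12 and Hoxd12 were too low to pass the filter in any comparison, at 0.346 CPM or less in the control EB and EB + RA libraries. Over the 3 control EB libraries Hoxd12 had 27 counts and Hoxc12 had 4, and in Neil2 EBs Hoxd12 had 0 counts and was at least 6.91-fold lower (floor of 3 counts over the group).

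In undifferentiated mESCs, 0 Hox genes were called in Neil1 mutants of 14 tested, and 0 in Neil2 mutants of 13 tested, beside 1.82% and 1.83% of all genes tested in either direction. At an unadjusted p below 0.05 edgeR gave 2 genes higher in Neil1 and 3 in Neil2, with 0 lower in each, and DESeq2 called 1 higher in Neil1 and 2 in Neil2, with 0 lower. The nearest to a call was Hoxd9, at 0.292, 0.525 and 0.435 CPM in control, 1.55, 0.849 and 1.75 CPM in Neil1 and 1.55, 1.34 and 0.843 CPM in Neil2 mESCs. Both mutants lay above the control libraries without overlap, with log2 fold changes of 1.71 ± 0.41 (edgeR adjusted p = 0.118) and 1.53 ± 0.39 (edgeR adjusted p = 0.125). Leaving out the mESC library of Neil1 clone #11 gave 0 calls as well, and with no filter 1 of 38 genes was higher in each mutant. The shares of 1.82% and 1.83% over all genes depended on the control libraries used. Without Control replicate 2, 0 genes were lower and 0 higher in Neil1, and 0 and 1 in Neil2. Without Control replicate 3, 1168 were lower and 843 higher in Neil1, and 825 and 669 in Neil2. In the Apex1 clone 1 of 18 genes tested was called, beside 16.9% of all genes tested, and this was Hoxb9, at 6 and 6.39 CPM against 2.67, 3.26 and 3.16 CPM in control (1.02 ± 0.22, edgeR adjusted p = 0.0394). The share of 16.9% rests on technical duplicates of 1 clone and depended on the control libraries used. Without Control replicate 2 the calls over all genes were 86 lower and 97 higher of 15964 tested. Without Control replicate 3 they were 3372 lower and 2782 higher of 16090. The Hoxb9 call was lost when any of Apex1 replicate 1, Apex1 replicate 2, Control replicate 1 or Control replicate 2 was left out.

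In EBs without RA, Hox genes of all 4 clusters and all paralog classes were downregulated in each mutant. In Neil1 EBs 27 of 30 genes tested were lower, beside 13.1% of all genes tested, and 0 were higher, beside 10.4%. In Neil2 EBs 25 of 30 were lower, beside 7.69%, and 0 were higher, beside 8.65%. In the Apex1 clone 26 of 35 were lower, beside 13.9%, and 1 was higher, beside 11.9%. The median log2 fold changes were -3.64, -2.89 and -1.95 for Neil1, Neil2 and Apex1, against at most 0.02 in size over all genes tested. For the counts of 0, an unadjusted p below 0.05 gave 0 genes higher and DESeq2 called 0 higher, for Neil1 and Neil2 alike. The 3 comparisons share the control libraries. A gene low in mutant EBs could pass the filter only through control EBs, which set its direction. With no filter on low counts, 34, 33 and 28 of 38 genes were lower, and 0, 0 and 1 higher.

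**Figure D3:**
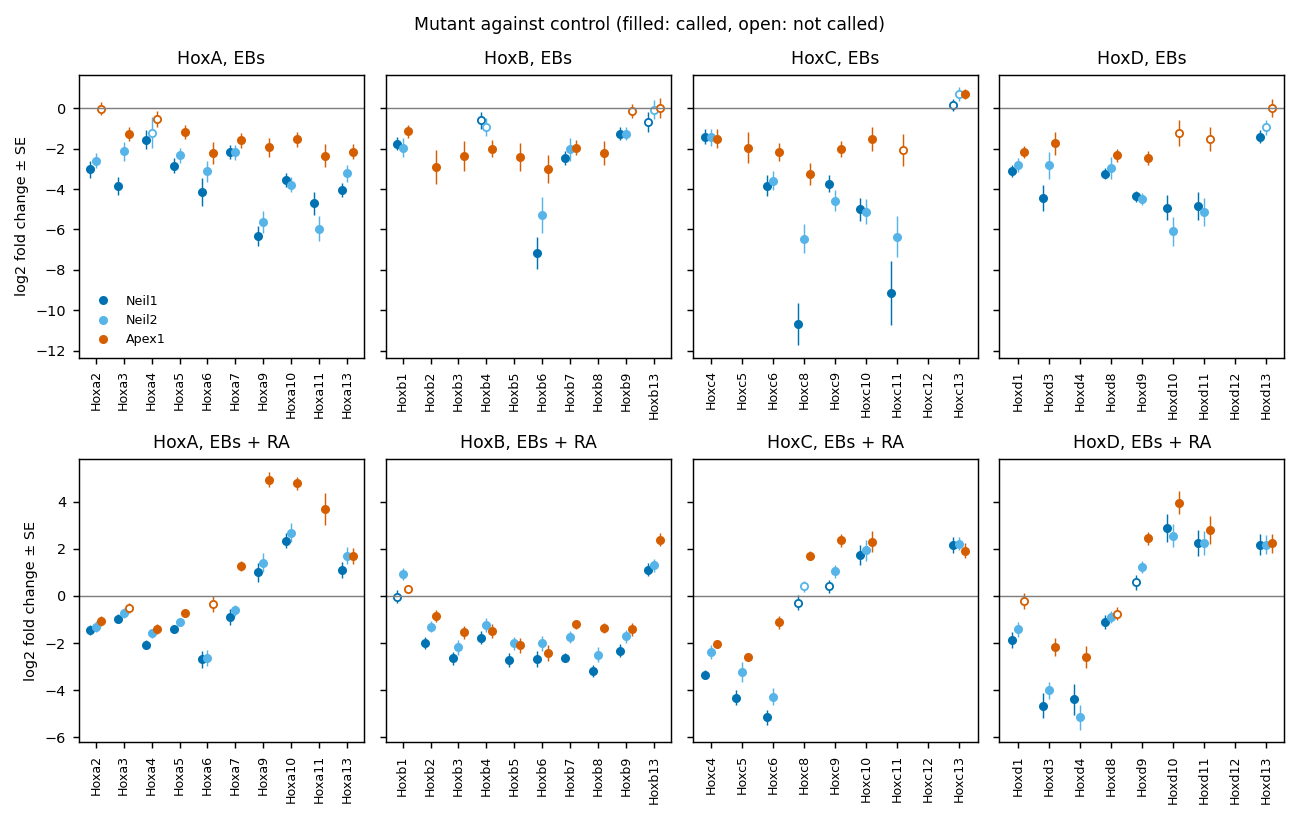
Log2 fold change of each mutant against control (points, with SE as bars) by gene in each cluster, in EBs (upper row) and EBs + RA (lower row), with called changes filled and others open. In EBs nearly all points lie below 0, while in EBs + RA genes of low paralog numbers lie below 0 and most of paralogs 9 to 13 above 0. The points of Hoxc8 and Hoxc11 in Neil1 EBs, a group with 0 counts of them, depend on how counts of 0 are treated.

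The 3 largest falls were those of Hoxc8, Hoxc11 and Hoxb6 in Neil1, of Hoxc8, Hoxc11 and Hoxd10 in Neil2 and of Hoxc8, Hoxb6 and Hoxb2 in Apex1. Except for Hoxb2, these are genes of the trunk. Hoxc8 read 9.96, 8.34 and 3.24 CPM in control EBs, 0 in each Neil1 EB library, 0.163, 0 and 0.0456 CPM in Neil2 EBs and 0.645 and 0.832 CPM in the Apex1 duplicates. Every mutant library was below every control library, and with 763 counts in control and 0 in Neil1 EBs, Hoxc8 was at least 180-fold lower in Neil1 (floor of 3 counts over the group). In Neil2 and Apex1 the log2 fold changes were -6.46 ± 0.71 (edgeR adjusted p = 0.00112) and -3.25 ± 0.55 (edgeR adjusted p = 0.00475).

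Hoxc11 gave 3.98, 2.81 and 0.625 CPM in control EBs, 0 in each Neil1 EB library, 0.0651, 0 and 0 CPM in Neil2 EBs and 0.403 and 0.756 CPM in the Apex1 duplicates. It was at least 64.5-fold lower in Neil1 EBs (273 counts in control, 0 in Neil1), and 105-fold lower in Neil2 EBs by 273 against 2 counts (95% counting interval 28.7 to 870), while the Apex1 duplicates overlapped the clone #7 control and their difference of -2.08 ± 0.81 was not called. Hoxb6 gave 7, 5.15 and 1.76 CPM in control, 0, 0.0417 and 0.038 CPM in Neil1, 0.293, 0 and 0 CPM in Neil2 and 0.363 and 0.756 CPM in Apex1 EBs. All mutant values of Hoxb6 were below all control values, and 504 against 2 counts put the Neil1 level 179-fold lower (95% counting interval 49.2 to 1480). Intervals from counts cover counting error only. Hoxb6 was called in Neil2 (-5.30 ± 0.89, edgeR adjusted p = 0.00675) and Apex1 (-3.02 ± 0.69, edgeR adjusted p = 0.0191) as well.

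Hoxd10 read 0.0501, 0.209 and 0.266 CPM in Neil1, 0.0977, 0 and 0.137 CPM in Neil2 and 1.53 and 3.25 CPM in Apex1 EBs, against the control values of 8.32, 6.51 and 2.24 CPM given above. Neil1 and Neil2 libraries lay far below all controls (-4.94 ± 0.62 and -6.10 ± 0.74), whereas the Apex1 duplicates overlapped the clone #7 control and the difference of -1.23 ± 0.63 was not called. Hoxb2, a hindbrain gene near its detection limit in EBs, read 0.648, 0.585 and 0.147 CPM in control and 0.0403 and 0.0756 CPM in Apex1 EBs, or 49 against 3 counts (8.45-fold lower, 95% counting interval 2.73 to 42.4). Of its exon bases 49.4% are shared with the antisense RNA Hoxb3os, and the library kit does not mark strand.

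The fall in EBs extended to the 3′ genes, with log2 fold changes from -4.46 (Hoxd3) to -1.41 (Hoxc4) among the 7 called genes of paralogs 1 to 4 in Neil1, and from -2.82 (Hoxd3) to -1.44 (Hoxc4) among 6 in Neil2. Hoxb1, a gene of hindbrain rhombomere 4, read 2.94, 1.79 and 3.02 CPM in control, 0.751, 1.04 and 0.532 CPM in Neil1, 0.488, 1.2 and 0.319 CPM in Neil2 and 0.887 and 1.4 CPM in Apex1 EBs. The mutant libraries were lower than each control library, with log2 fold changes of -1.75, -1.95 and -1.16. All tested genes of paralogs 5 to 8 were lower in each mutant, 8 of 8 in Neil1 and in Neil2 and 11 of 11 in Apex1. Hoxa6, Hoxb6, Hoxc6 and Hoxc8 in Neil1 and Neil2 passed the filter only through control EBs. So did Hoxa6, Hoxb5, Hoxb8 and Hoxc5 in Apex1, and the direction of these genes was set by the filter.

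Genes of paralogs 9 to 13 were lower in 12 of 14 tests in Neil1, 11 of 14 in Neil2 and 7 of 14 in Apex1. The smallest adjusted p of this class in Neil1 were those of Hoxd9 (-4.37 ± 0.28, edgeR adjusted p = 4.0e-06) and Hoxa13 (-4.05 ± 0.34, edgeR adjusted p = 1.8e-05). The genes not called were Hoxb4, Hoxb13 and Hoxc13 in Neil1, with the addition of Hoxa4 and Hoxd13 in Neil2, and Hoxa2, Hoxa4, Hoxb9, Hoxb13, Hoxc11, Hoxd10, Hoxd11 and Hoxd13 in Apex1. Hoxc13 was the only Hox gene called higher, in the Apex1 clone, at 3.23 and 3.21 CPM against 1.9, 1.91 and 2.21 CPM in control EBs (0.70 ± 0.23, edgeR adjusted p = 0.0409), and that call was lost without Control replicate 2 or either Apex1 duplicate. Without Apex1 replicate 1 the 26 genes lower in Apex1 EBs became 11, and without Apex1 replicate 2 they became 16.

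The difference between mutants was tested in a fit without control libraries, as Apex1 EBs against the mean of Neil1 and Neil2 EBs. Of 28 genes tested, 18 were higher in Apex1, beside 9.32% of all genes tested, and 0 were lower, beside 9.77%, with 1 gene lower at an unadjusted p below 0.05 and 0 lower by DESeq2. The 18 genes held 12 of the 14 tested genes of paralogs 9 to 13, 3 of 8 of paralogs 1 to 4 and 3 of 6 of paralogs 5 to 8. The smallest adjusted p were those of Hoxa9 (4.05 ± 0.47, edgeR adjusted p = 6.3e-04) and Hoxd10 (4.28 ± 0.53, edgeR adjusted p = 9.0e-04). With no filter 21 of 38 genes were higher, and without Apex1 replicate 2 the count was 7.

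Summed over all 38 genes, Hox RNA was 5.33 to 7.87 CPM per kb in Neil1 EBs, 6.23 to 10.6 in Neil2 EBs and 15.4 and 22.6 in the Apex1 duplicates, against 32.1 to 72.5 in control EBs. In Neil1 and Neil2 these sums lie below the 9.66 to 14.7 and 11.2 to 13.9 CPM per kb of the same genotypes as mESCs. The number of genes at a group mean of 1 CPM or more was 28 in control, 4 in Neil1, 5 in Neil2 and 15 in Apex1 EBs. With sums taken as the value of each library, an exact permutation test of 3 against 3 cannot give a two-sided p below 0.1, so no test of the sums is given.

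**Figure D4:**
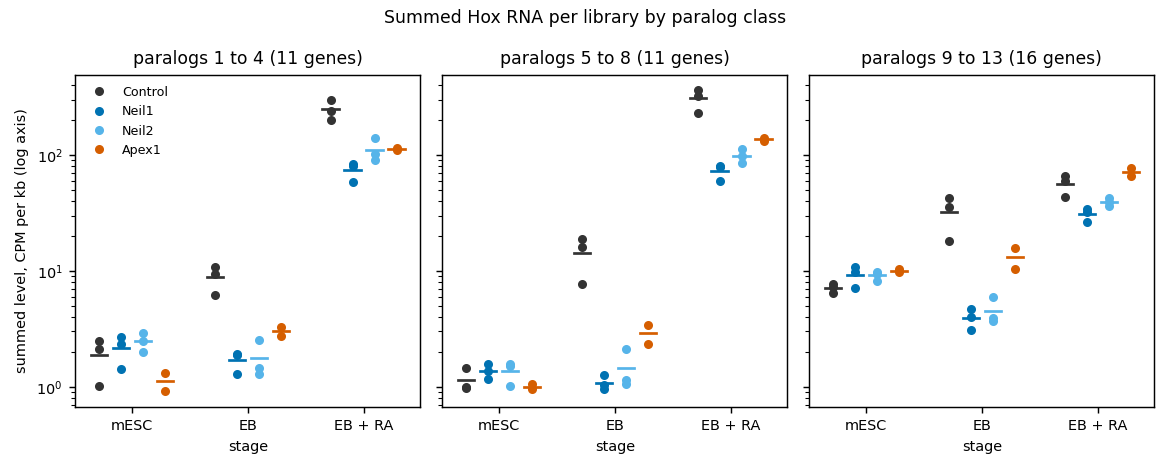
Summed level of the Hox genes of each paralog class in CPM per kb (log axis), with 1 point per library and bars at group means, by stage and genotype. In EBs all mutant libraries lie below all control libraries in every class, and in EBs + RA the Apex1 libraries of paralogs 9 to 13, at 65.7 and 77.0, reach the level of the controls at 43.0 to 66.1, while those of Neil1, at 26.4 to 34.5, and of Neil2, at 36.5 to 42.8, lie below.

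With RA, mutant EBs expressed Hox genes strongly, but in another composition than control EBs. Genes of paralogs 1 to 8 were mostly lower than in control and genes of paralogs 9 to 13 mostly higher. Summed levels were 475.1 to 724 CPM per kb in control, 144 to 197 in Neil1, 215 to 296 in Neil2 and 312 and 327 in Apex1. Paralogs 9 to 13 made 8.16% to 10.5% of the sum in control, 16.7% to 18.4% in Neil1, 14.5% to 18.1% in Neil2, and 21.1% and 23.6% in the Apex1 duplicates, without overlap between control and any mutant. The summed level of this class was nevertheless lower in Neil1, at 26.4 to 34.5 CPM per kb, and in Neil2, at 36.5 to 42.8, than in control, at 43.0 to 66.1, and it stood at 65.7 and 77.0 in Apex1. Hoxb9, the most abundant gene of the class in control, was at 46.9 ± 14.6 CPM per kb in control and lower in each mutant, at 9.56 ± 1.76 in Neil1, 14.2 ± 3.49 in Neil2 and 17.4 ± 0.348 in Apex1, while most other genes of the class were higher.

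In Neil1 EBs + RA 21 of 34 genes tested were lower, beside 19.9% of all genes tested, and 9 were higher, beside 21.2%. In Neil2 EBs + RA 21 of 34 were lower, beside 16.6%, and 12 were higher, beside 18.3%. In Apex1 EBs + RA 16 of 35 were lower, beside 10.9%, and 14 were higher, beside 13.9%. Median log2 fold changes were -1.44, -1.17 and -0.51, against at most 0.02 in size over all genes tested. With no filter the counts were 21 lower and 9 higher in Neil1, 20 and 14 in Neil2, and 16 and 16 in Apex1, where 37 of the 38 genes had a count to test. The 9 genes higher in Neil1 were all of paralogs 9 to 13, as were 11 of 12 in Neil2 and 12 of 14 in Apex1. Without Apex1 replicate 1 the 16 genes lower in Apex1 became 7.

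Hoxc6, Hoxd3 and Hoxd4, genes of the neck and thorax, fell furthest in Neil1 and Neil2. Hoxc6 read 34.8, 30.6 and 18.3 CPM in control, 0.871, 0.866 and 0.64 CPM in Neil1, 2.07, 0.952 and 1.32 CPM in Neil2 and 10.7 and 14.7 CPM in Apex1 EBs + RA. Neil1 and Neil2 libraries were all below 2.1 CPM, the Apex1 duplicates lay between them and the controls, and the log2 fold changes were -5.15 ± 0.32, -4.27 ± 0.37 and -1.12 ± 0.29 (edgeR adjusted p = 8.6e-05, 3.2e-04 and 0.0296).

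Hoxd3 read 2.24, 2.81 and 0.801 CPM in Neil1, 3.3, 2.85 and 2.99 CPM in Neil2 and 10.2 and 11.4 CPM in Apex1, against 55.8, 66.7 and 24.4 CPM in control EBs + RA. Hoxd4 read 7.05, 7.8 and 2.83 CPM in control, 0.249, 0.541 and 0.04 CPM in Neil1, 0.185, 0.127 and 0.174 CPM in Neil2 and 0.931 and 0.993 CPM in Apex1. All mutant libraries of both genes lay below all controls, with the Apex1 duplicates the nearest to control. Hoxd4 differed by -4.40 ± 0.68 in Neil1, -5.16 ± 0.52 in Neil2 and -2.59 ± 0.48 in Apex1.

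In the Apex1 clone the 3 largest falls were those of Hoxd4, Hoxc5 and Hoxb6. Hoxc5 read 8.89, 8.48 and 3.64 CPM in Neil1, 26, 7.83 and 10.2 CPM in Neil2 and 19.7 and 25.4 CPM in Apex1, against 122 to 151 CPM in control (-2.59 ± 0.17 in Apex1, edgeR adjusted p = 3.7e-04). Hoxb6 read 19.4, 16.9 and 11.8 CPM in Neil1, 26, 19.6 and 30.2 CPM in Neil2 and 18.4 and 19.1 CPM in Apex1, against 57 to 137 CPM in control (-2.41 ± 0.35 in Apex1, edgeR adjusted p = 0.00315). Neither gene overlapped between control and a mutant, and replicate 1 of Neil2 (clone #1) was the highest Neil2 library for Hoxc5.

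Genes of paralogs 1 to 4 were called lower in 10 of 11 in Neil1 and in Neil2 and 8 of 11 in Apex1. The exception in all 3 mutants was Hoxb1, at 42.9, 40 and 57 CPM in control, 56.7, 55.7 and 26.7 CPM in Neil1, 125, 69.4 and 71 CPM in Neil2 and 49.5 and 62.8 CPM in Apex1. Hoxb1 was called higher in Neil2 (0.93 ± 0.25, edgeR adjusted p = 0.0239), where all libraries lay above the controls, and not called in Neil1 (-0.03 ± 0.28) or Apex1 (0.29 ± 0.18). Hoxa3 and Hoxd1 were the others not called in Apex1.

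Among paralogs 5 to 8, 10 of 11 genes were lower in Neil1 and Neil2 and 7 of 11 in Apex1. Hoxa5, Hoxa6, Hoxa7, Hoxb5, Hoxb7, Hoxb8 and Hoxd8 fell by 0.91 (Hoxa7) to 3.18 (Hoxb8) on the log2 scale in Neil1, and by 0.61 to 2.62 in Neil2. Hoxc8 was not called in Neil1 (-0.29 ± 0.31) or Neil2 (0.40 ± 0.24) and was higher in Apex1 (1.72 ± 0.19, edgeR adjusted p = 0.00136). Hoxa7 was lower in Neil1 and Neil2 and higher in Apex1, at 13.3 and 13.6 CPM against 6.66, 5.08 and 5.3 CPM in control (1.26 ± 0.20, edgeR adjusted p = 0.0051). Its calls in Neil1 and in Neil2 were each kept in only 2 of the 6 fits that left out 1 library.

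Posterior genes ran the other way. Hoxa10, which patterns lumbar vertebrae and the uterus, read 0.418, 0.331 and 0.428 CPM in control, 2.27, 2.2 and 1.64 CPM in Neil1, 1.41, 3.39 and 2.85 CPM in Neil2 and 12.3 and 9.28 CPM in Apex1 EBs + RA. Every mutant library exceeded every control library, the Apex1 duplicates by the most, with log2 fold changes of 2.34 ± 0.32, 2.68 ± 0.40 and 4.78 ± 0.29 (edgeR adjusted p = 0.00145, 0.00232 and 3.3e-04).

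Hoxd10 read 0.0644, 0.0368 and 0.132 CPM in control, 0.466, 0.938 and 0.44 CPM in Neil1, 0.556, 0.476 and 0.418 CPM in Neil2 and 1.4 and 1.16 CPM in Apex1. Hoxd11, a gene of sacrum and forelimb, read 0.0322, 0.184 and 0.165 CPM in control, 0.466, 0.794 and 0.601 CPM in Neil1, 0.63, 0.571 and 0.626 CPM in Neil2 and 1.1 and 0.685 CPM in Apex1. All mutant values of both genes lay above the controls, and the highest of them was 1.4 CPM. In control EBs + RA Hoxd10 had 2, 1 and 4 counts and Hoxd11 had 1, 5 and 5. Both genes passed the filter only through the mutant libraries, so their direction was set by the filter. Log2 fold changes were 2.88 ± 0.58, 2.56 ± 0.50 and 3.96 ± 0.50 for Hoxd10 and 2.25 ± 0.55, 2.25 ± 0.51 and 2.80 ± 0.59 for Hoxd11.

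In the Apex1 clone Hoxa9 gave the largest rise, at 18.8 and 20.8 CPM against 0.644, 0.368 and 0.922 CPM in control (4.94 ± 0.32, edgeR adjusted p = 3.3e-04). Neil1 (1.03, 1.59 and 1.36 CPM) and Neil2 (1.45, 2.32 and 1.43 CPM) stood between, without overlap with control or Apex1. Hoxa13, Hoxb13, Hoxc10, Hoxc13 and Hoxd13 were higher in all 3 mutants, by 1.09 (Hoxa13) to 2.17 (Hoxd13) in Neil1. The Neil1 calls of Hoxa13 and Hoxa9 were kept in 3 and 2 of the 6 fits that each left out 1 library. Hoxc13 in Neil1, at 7.49, 7.86 and 4.8 CPM, overlapped its level in Neil1 mESCs (8.3, 4.93 and 10.3 CPM). Hoxd13 did so too, at 4.82, 3.57 and 2.44 CPM and, in Neil1 mESCs, 3.475, 3.1 and 4.08 CPM. Hoxb13, a tail and prostate gene that RA raised in control, read 6.98, 10.4 and 16.2 CPM in control, 22.6, 26.4 and 24.3 CPM in Neil1, 25.3, 30.5 and 26.5 CPM in Neil2 and 62.7 and 53.3 CPM in Apex1, with all mutants above control. Hoxc9 and Hoxd9 were higher in Neil2 and Apex1 and not called in Neil1. Hoxa11 was tested in Apex1 only and was higher there (3.68 ± 0.68). With 26 and 21 counts in Apex1 and 2, 0 and 4 in control, it passed the filter only through the Apex1 duplicates. Its direction was thus set by the filter.

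Hoxb9 was the exception among posterior genes and followed its HoxB neighbours. It read 151, 132 and 78.9 CPM in control, 26.9, 27.5 and 19.4 CPM in Neil1, 47, 31.9 and 31 CPM in Neil2 and 45.3 and 44 CPM in Apex1. All mutant libraries lay below all controls, with log2 fold changes of -2.32 ± 0.26, -1.72 ± 0.27 and -1.42 ± 0.26.

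In the test of Apex1 against the mean of Neil1 and Neil2 in EBs + RA, 20 of 35 genes were higher in Apex1, beside 13.5% of all genes tested, and 0 were lower, beside 13.1%, with 0 lower at an unadjusted p below 0.05 and 0 by DESeq2. The smallest adjusted p were those of Hoxa9 (3.68 ± 0.23, edgeR adjusted p = 3.3e-05) and Hoxc6 (3.54 ± 0.28, edgeR adjusted p = 1.2e-04). Genes of all classes were among them, with 6 of 11, 6 of 11 and 8 of 13 tested genes of paralogs 1 to 4, 5 to 8 and 9 to 13. The count was 9 without Apex1 replicate 1 and 13 without Apex1 replicate 2.

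The response to RA was then compared within each genotype. Almost all Hox genes rose with RA in mutants, including posterior genes that fell in control. In Neil1, 34 of 36 genes rose, beside 30.0% of all genes tested, and 0 fell, beside 23.6%. In Neil2, 34 of 36 rose, beside 22.9%, and 0 fell, beside 21.8%. In Apex1, 30 of 36 rose, beside 24.5%, and 0 fell, beside 19.9%. No gene fell at an unadjusted p below 0.05 in any mutant, and DESeq2 called 0 lower in each. Median log2 fold changes were 4.17, 3.72 and 4.43 against 3.44 in control, with 0.01 to 0.08 over all genes tested. When Hoxc8 and Hoxc11, which had 0 counts in Neil1 EBs, are set to their bounds, the Neil1 median is 3.85. With EBs and EBs + RA of a clone as a block, 1 gene fell in Apex1, Hoxc11 (-1.24, edgeR adjusted p = 0.0998). With no filter 34, 35 and 30 of 38 genes rose in Neil1, Neil2 and Apex1, and 2 fell in Apex1.

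**Figure D5:**
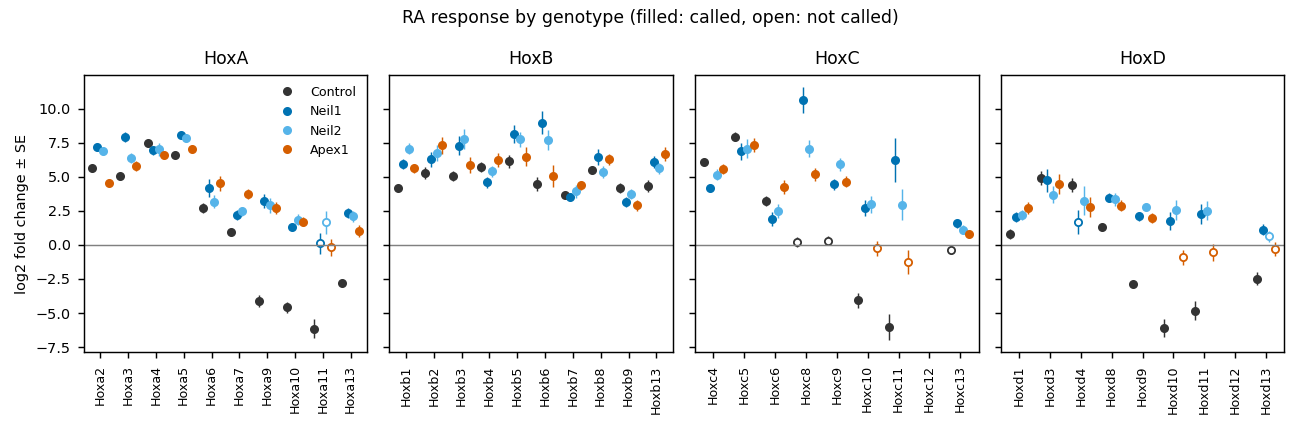
Log2 fold change of EBs + RA against EBs (points, with SE as bars) for each Hox gene by cluster, in control, Neil1, Neil2 and Apex1, with called changes filled and others open. For paralogs 1 to 8 the points of all genotypes lie above 0, and for HoxA, HoxC and HoxD genes of paralogs 9 to 13 control points other than Hoxc9 lie below 0 and most mutant points above. The Neil1 points of Hoxc8 and Hoxc11 depend on how counts of 0 are treated.

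The difference in RA response between Neil1 and control was called for 23 of 36 genes, with a more positive response in Neil1 for 22, beside 16.5% of all genes tested, and a less positive one for 1, beside 13.1%. In Neil2 21 genes were more positive, beside 7.31%, and 0 less, beside 7.7%, with 0 less at an unadjusted p below 0.05 and by DESeq2. In Apex1 18 genes were more positive, beside 10.0%, and 1 less, beside 5.7%. A more positive response does not mean a higher level with RA. In Neil1 and in Neil2 the more positive genes included Hoxa2, Hoxa3, Hoxa5, Hoxa7, Hoxb6, Hoxd1 and Hoxd8. These were called lower than control both in EBs and in EBs + RA, so their larger fold change started from lower levels, such as 1, 2 and 5 counts of Hoxa3 in Neil1 EBs. With the clone as a block the less positive genes numbered 5 in Neil1 (Hoxb4, Hoxb9, Hoxc4, Hoxc6 and Hoxd4) and 2 in Apex1 (Hoxa2 and Hoxb9). The block also added calls of a more positive response. These were Hoxb3 and Hoxb5 in Neil1, Hoxb3, Hoxb5 and Hoxb13 in Neil2, and Hoxa3, Hoxa6 and Hoxc6 in Apex1. Without the block, 13 of 14 tested genes of paralogs 9 to 13 were more positive in Neil1, 12 of 14 in Neil2 and 13 of 14 in Apex1. Without Apex1 replicate 1 the 18 genes in Apex1 became 9 and without Apex1 replicate 2 they became 10, and without Control replicate 2 the 21 genes in Neil2 became 13.

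Hoxa9 shows the pattern of the posterior genes. Its log2 fold change with RA was -4.13 ± 0.45 in control, and it rose in Neil1 by 3.21 ± 0.54, in Neil2 by 2.90 ± 0.55 and in Apex1 by 2.72 ± 0.45. In CPM, control went from 16.3, 12.6 and 6.11 to 0.644, 0.368 and 0.922 and Neil1 from 0.0501, 0.167 and 0.19 to 1.03, 1.59 and 1.36, so that the level with RA in Neil1 lay below that of control EBs without RA. The differences in response were 7.35 ± 0.67, 7.04 ± 0.72 and 6.86 ± 0.63 (edgeR adjusted p = 2.1e-05, 8.8e-05 and 1.6e-04).

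Hoxc8, not called with RA in control, rose from 0 counts in Neil1 EBs by at least 166-fold (floor of 3 counts over the group), and by 7.07 ± 0.61 in Neil2 and 5.18 ± 0.49 in Apex1. In EBs + RA it stood at 8.86, 7.83 and 4 CPM in Neil1 and 14, 8.76 and 10.2 CPM in Neil2, which overlap the control values. Hoxd10, Hoxd11 and Hoxc10 rose in Neil1 and Neil2, by 1.75 to 2.70 in Neil1, and were not called in Apex1, at -0.91 ± 0.57, -0.54 ± 0.63 and -0.26 ± 0.55. Hoxa11 was not called in any mutant, nor was Hoxd13 in Neil2 and Apex1, nor Hoxd4 in Neil1 (1.68 ± 0.87).

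Among 3′ genes the RA response was called in each genotype for Hoxa2, Hoxa3, Hoxa4, Hoxb1, Hoxb2, Hoxb3, Hoxb4, Hoxc4, Hoxd1 and Hoxd3, with the weak call of Hoxd1 in control already described. Hoxc4 was the 1 gene with a less positive response in Neil1 without the block (4.17 ± 0.30 in Neil1, 6.06 ± 0.29 in control, difference -1.90 ± 0.42, edgeR adjusted p = 0.00703). Hoxa2 was the 1 such gene in Apex1 (-1.04 ± 0.35, edgeR adjusted p = 0.0818), and it was more positive in Neil1 (1.59 ± 0.43) and Neil2 (1.28 ± 0.42). The Apex1 call of Hoxa2 was lost without Control replicate 1 or Control replicate 2. Of 6 fits that each left out 1 library, 1 kept its Neil2 call and 5 kept its Neil1 call. Hoxa2 had 2, 2 and 5 counts in Neil1 EBs and 5, 3 and 5 in Neil2 EBs. For Hoxa4, Hoxb2, Hoxb3 and Hoxb4 no difference in response was called in any mutant without the block, which does not show that the responses are alike.

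Caudal factors, known activators of trunk Hox genes, were lower in mutant EBs. Cdx1, Cdx2 and Cdx4 were all called lower in Neil1 and Neil2 EBs, and Cdx2 and Cdx4 in the Apex1 clone. Of all genes tested 13.1%, 7.69% and 13.9% were lower in Neil1, Neil2 and Apex1 EBs. Cdx2 measured 70.1 ± 19 CPM in control EBs (mean ± SD, n = 3), 1.56 ± 0.227 in Neil1, 1.67 ± 0.427 in Neil2 and 10.1 ± 1.45 in the Apex1 duplicates. In EBs + RA 1 of 2 tested caudal genes was higher in Neil1 (Cdx2, 1.00 ± 0.41) and 1 in Neil2 (Cdx1, 2.02 ± 0.37), and both were higher in Apex1, beside the higher posterior Hox genes. Of all genes tested 21.2%, 18.3% and 13.9% were higher in Neil1, Neil2 and Apex1 EBs + RA. Their part in the Hox levels was not tested.

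TALE homeodomain proteins bind DNA together with Hox proteins. Of 9 Pbx, Meis and Pknox genes, 8 rose with RA in control, beside 23.3% of all genes tested, Meis1 by 5.46 ± 0.18 and Meis2 by 3.35 ± 0.12. In EBs + RA 7 of 9 were lower in Neil1, 7 in Neil2 and 5 in Apex1, beside 19.9%, 16.6% and 10.9% of all genes tested, with median log2 fold changes of -1.40, -1.34 and -0.55. In EBs 5, 4 and 3 were lower, beside 13.1%, 7.69% and 13.9%. Of other regulators of axial level, 6 of 9, 5 of 9 and 6 of 10 tested were lower in Neil1, Neil2 and Apex1 EBs, beside 13.1%, 7.69% and 13.9%. In each 1 was higher (Otx2, a forebrain and midbrain gene), beside 10.4%, 8.65% and 11.9%. In EBs + RA 4 of 8, 3 of 9 and 3 of 9 of these regulators were lower, beside 19.9%, 16.6% and 10.9%. There 2 were higher in each, beside 21.2%, 18.3% and 13.9%.

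Genes of the RA pathway gave mixed results. Of 15 receptors, binding proteins and enzymes, 12 rose and 2 fell with RA in control, beside 23.3% and 20.7% of all genes tested. In EBs 5, 2 and 4 were lower, beside 13.1%, 7.69% and 13.9%, and 1, 2 and 2 higher in Neil1, Neil2 and Apex1, beside 10.4%, 8.65% and 11.9%. In mutant EBs + RA 4 were lower and 4 higher in Neil1 and in Neil2, beside 19.9% and 21.2% of all genes in Neil1 and 16.6% and 18.3% in Neil2, and 5 were lower and 2 higher in Apex1, beside 10.9% and 13.9%. Apart from the 5 lower genes in Apex1, the counts in EBs + RA lay near those shares, and the median log2 fold changes were -0.02, 0.01 and -0.11. Rarb, a direct target of RA, was at 117 ± 17.4 CPM in control, 68.9 ± 5.97 in Neil1, 61.9 ± 5.16 in Neil2 and 73.5 ± 2.6 in Apex1 EBs + RA, and it rose with RA in all genotypes. Among 15 Polycomb genes, whose products keep Hox genes silent, Ezh2 was lower in all mutant EBs + RA (-1.14 ± 0.18, -1.01 ± 0.17 and -0.64 ± 0.17), and 4, 3 and 1 of the 15 were lower, beside 19.9%, 16.6% and 10.9% of all genes tested, and 3, 2 and 2 higher in Neil1, Neil2 and Apex1, beside 21.2%, 18.3% and 13.9%. These counts lay near the shares over all genes. Of 8 Trithorax and H3K27 demethylase genes, which counteract Polycomb, Kdm6a in Neil1 EBs + RA and Kdm6b in Neil1 and Apex1 EBs were the only ones called against control, each lower.

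Other annotated genes inside the clusters, mostly noncoding, were also called. The antisense RNA Hoxa11as fell with RA in control (-5.98 ± 0.59) and was lower in each mutant as EBs (-3.87 ± 0.46, -3.64 ± 0.47 and -1.12 ± 0.45). The antisense RNA Hoxb3os rose with RA by 5.07 ± 0.29 and was lower in each mutant with and without RA. Of the 8 genes inside HoxA, 3 of 3 tested were lower in Neil1 and in Neil2 EBs, beside 13.1% and 7.69% of all genes tested. In their EBs + RA 4 of 4 were lower, beside 19.9% and 16.6%. In the Apex1 clone with RA 3 of 6 were lower, beside 10.9%, and 2 higher, beside 13.9%. Of the 10 genes inside HoxB, 6 were tested in EBs + RA. In each mutant 3 were lower, beside 19.9%, 16.6% and 10.9% in Neil1, Neil2 and Apex1. The gene Gm53 was higher in each, beside 21.2%, 18.3% and 13.9%. Of the 7 inside HoxD, 3 of 3 tested were lower with RA in Neil1 and in Neil2, and 1 of 3 in Apex1, beside the same shares. Of the 6 inside HoxC none had enough counts to be tested. Reads from a Hox gene and its antisense partner cannot be told apart here. The Hox genes that share exon bases with other annotated genes, from 11% for Hoxa2 to 67% for Hoxd4, are Hoxa2, Hoxa3, Hoxa7, Hoxa11, Hoxb2, Hoxb3, Hoxb7, Hoxb8, Hoxc5, Hoxd3 and Hoxd4 above 10%, and their values are uncertain.

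Beside the clusters stands Evx1, the homeobox gene at the 5′ end of HoxA, which is known for its place in the posterior growth zone. Evx1 measured 30.4 ± 4.36 CPM in control EBs, 0.783 ± 0.18 in Neil1, 0.672 ± 0.332 in Neil2 and 6.89 ± 1.59 in Apex1 EBs, and it was called lower in each. Among the other flanking genes, 4 being taken for each cluster, the calls in EBs were Skap1 (lower in Neil1 and Neil2), Snx10 (higher in Neil1), Calcoco2 (higher in Neil1 and Neil2) and Ttll6 (higher in Neil2 and Apex1). Smug1 beside HoxC was lower in EBs + RA of each mutant (-2.12 ± 0.19, -1.95 ± 0.18 and -0.87 ± 0.19).

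Markers of several cell types differed between mutants and control, at some stages in other directions than the Hox genes. In EBs, the 4 markers of the posterior growth zone (T, Cdx2, Nkx1-2 and Wnt3a) summed to 165 to 180.0 CPM in control, 4.93 to 8.81 in Neil1, 2.51 to 7.3 in Neil2 and 40.8 to 50.8 in Apex1, and 4, 3 and 3 of them were called lower, beside 13.1%, 7.69% and 13.9% of all genes tested. T, Nkx1-2 and Wnt3a were also counted among the regulators of axial level, and Cdx2 among the caudal factors. The counts of these lists are thus not separate observations. The 6 mesoderm markers summed to 102 to 121 CPM in control and to 7.55 to 14.4 CPM over all mutant EB libraries, with 5 of 5, 4 of 5 and 3 of 5 tested lower, beside the same shares. In EBs + RA they summed to 44.4 to 47.8 CPM in control and 14.9 to 96.1 in Neil1. Neil2 stood at 16.8 to 23.5 CPM there and Apex1 at 32.3 to 37.3 CPM. In EBs + RA, the 3 neural progenitor markers summed to 172 to 297 CPM in control and to 15.4 to 56.5 CPM over all mutants, with 3 of 3 lower in each, beside 19.9%, 16.6% and 10.9% of all genes tested in Neil1, Neil2 and Apex1. The 4 neuron markers, which stood at 432 to 459 CPM in control mESCs, summed to 122 to 210.0 CPM in control and 26.0 to 44.8 CPM in mutants, with 4, 4 and 3 lower, beside the same shares. In EBs without RA they summed to 109 to 111 CPM in control and 138 to 186 in Neil1. Neil2 EBs stood at 100 to 199 CPM and Apex1 EBs at 139 to 142 CPM. The 4 neural crest markers summed to 17.1 to 28.4 CPM in control mESCs and 15.4 to 29.9 CPM in control EBs + RA. In mutant EBs + RA they summed to 2.0 to 7.47 CPM. Of the 4, 2 were lower in each mutant, beside 19.9%, 16.6% and 10.9% of all genes tested in Neil1, Neil2 and Apex1. There 1 was higher in Neil2 and in Apex1, beside 18.3% and 13.9%. In EBs without RA these markers summed to at most 21.2 CPM in control and 27.8 to 35.2 CPM in Neil1, without overlap. Neil2 EBs reached 43.4 CPM and overlapped control, and Apex1 EBs stood at 17.2 to 18.5 CPM, within the control range. Pluripotency markers in EBs + RA summed to 114 to 188 CPM in control, 346 to 430 in Neil1, 248 to 598 in Neil2 and 628 to 760 in Apex1, with 6, 6 and 5 of 6 called higher, beside 21.2%, 18.3% and 13.9%. In EBs the pluripotency markers summed to 1590 to 2500 CPM over the mutants, with 5, 4 and 3 of 6 called higher, beside 10.4%, 8.65% and 11.9%. In Apex1 EBs 1 was lower, beside 13.9%.

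The 4 endoderm markers summed to 110.0 to 256 CPM in control EBs, 171 to 296 in Neil1, 65.4 to 297 in Neil2 and 26.5 to 33.3 in Apex1, where 3 of 4 were lower, beside 13.9%. With RA they summed to 77.1 to 210 CPM in control and 198 to 426 in Neil1. Neil2 stood at 67.6 to 214 CPM with RA and Apex1 at 100 to 107 CPM. The 5 forebrain and midbrain markers summed to 2.65 to 3.74 CPM in control EBs, 4.81 to 6.19 in Neil1 and 3.88 to 5.12 in Neil2, both above control without overlap, and 2.61 to 3.87 in Apex1. In EBs + RA they summed to 14.7 to 21.9 CPM in control and, below it without overlap, to 11.4 to 13.6 in Neil1, 11.9 to 13.7 in Neil2 and 7.47 to 9.05 in Apex1. Of 4 tested, at most 1 was called in either direction in any mutant, and Six3 of that list was at 0 in every mESC and EB library. The part of the cell type markers in the Hox differences was not tested.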

How the data were processed

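Poly(A) RNA of 33 samples was sequenced from unstranded TruSeq libraries for 51 cycles on an Illumina HiSeq. The deposited values are raw read counts per gene, which the authors made with TopHat2 2.0.9, Bowtie2 2.1.0 and HTSeq 0.5.4 on NCBIM37 (the strand setting of the counting is not given in the sources used here), so reads over exons of more than 1 gene were set aside. Rows that name no gene were left out of totals, and 1.894% to 2.879% of the reads listed in a file were ambiguous between genes. Of 37991 gene IDs, 37205 were named from GENCODE annotation. Libraries held 21523742 to 48350904 counts on genes, and reads were counted without molecular identifiers.

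Each comparison was fitted on its own groups in edgeR 4.0.16 (filterByExpr, TMM, robust quasi-likelihood F test, R 4.3.3), two-sided, with Benjamini-Hochberg adjustment over all genes tested and calls at an adjusted p below 0.1 where the log2 fold change exceeded 0.5 in size. RA responses of a mutant and control came from 1 fit of 4 groups with an interaction term. The reported fits did not use the pairing of clones, which entered only as the replicate block. CPM per kb used exon bases not shared with another gene. Scripts were tested on simulated data. The clones of EBs and EBs + RA are true pairs, since EBs were split on day 4, and their deviations correlated (0.188 to 0.403 over 9 pairs), whereas same-numbered mutant and control clones share only a number. Alternatives were DESeq2 1.42.0, RLE size factors, total counts, no filter, the replicate block, summed Apex1 duplicates and leaving out each library. Every Hox gene is named, and values per library are given for the highest gene per kb of each cluster in control and for the 3 largest called falls and rises per mutant. Genes that are not Hox genes came from lists of cofactors, regulators, cluster neighbours and cell type markers. The Hox genes and lists were chosen with earlier results of these data known. One further Hox gene, and the values of some listed genes, are not reported here. Python 3.11.15 with numpy 2.4.6, pandas 2.3.3 and matplotlib 3.10.9 made the tables and figures.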

Additional observations from a re-analysis of the deposited data

Results flagged for a closer look

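The response to RA differed from that of control, by the interaction test in edgeR, for 23 Hox genes in Neil1, 21 in Neil2 and 19 in Apex1. Among these, the genes below had a called response in opposite directions in mutant and control. All fell with RA in control and rose in the mutant.

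In Neil1 the differences in log2 fold change were 5.901 for Hoxa10, 12.216 for Hoxc11, 3.588 for Hoxd13, 6.767 for Hoxc10, 5.154 for Hoxa13, 7.353 for Hoxa9, 7.113 for Hoxd11, 4.968 for Hoxd9 and 7.833 for Hoxd10. Hoxc11 had 0 counts in Neil1 EBs, so its value depends on how counts of 0 are treated.

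In Neil2 they were 6.446 for Hoxa10, 8.946 for Hoxc11, 7.038 for Hoxc10, 4.915 for Hoxa13, 7.035 for Hoxa9, 7.352 for Hoxd11, 5.692 for Hoxd9 and 8.635 for Hoxd10. Hoxc11 had 2 counts in Neil2 EBs. In Apex1, which is 1 clone in duplicate, they were 6.301 for Hoxa10, 3.829 for Hoxa13, 6.86 for Hoxa9 and 4.88 for Hoxd9.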

How the results depend on the processing

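Numbers of called Hox genes in the Neil1 and Neil2 comparisons of EBs and of EBs + RA with control stayed within 1.5 times under every alternative run. The counts that moved further were these, given from the reported value to the alternative. With DESeq2, genes higher in mESCs went from 0 to 1 in Neil1 and from 0 to 2 in Neil2, and genes with a less positive RA response than control from 1 to 4 in Neil1 and from 1 to 2 in Apex1. With RLE size factors the latter count went to 2 in Neil1. With no filter, genes higher in mESCs went from 0 to 1 in Neil1 and in Neil2, and genes that fell with RA in Apex1 from 0 to 2. With the replicate block, genes higher in mESCs went from 0 to 2 in Neil2 and from 1 to 4 in Apex1, genes lower in Apex1 mESCs from 0 to 3, genes with a less positive RA response from 1 to 5 in Neil1 and from 1 to 2 in Apex1, and genes that fell with RA in Apex1 from 0 to 1. For mutant against control the block pairs samples by number alone (correlations of -0.331 to 0.073 in EBs, -0.163 to 0.245 in EBs + RA and -0.277 to 0.406 in mESCs, 9 pairs each), and it moved no other count of calls by over 1.5 times. With the Apex1 duplicates summed to 1 sample, genes higher in Apex1 mESCs and in Apex1 EBs went from 1 to 0, genes with a less positive RA response from 1 to 0 and with a more positive one from 18 to 10, and genes higher in Apex1 than in Neil1 and Neil2 with RA from 20 to 12. The lone Apex1 sample is then assumed to vary like the other groups. The cause of these shifts was not tested.

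Leaving out 1 library at a time gave these ranges. In mESCs, genes higher numbered 0 to 1 in Neil1, 0 to 2 in Neil2 and 0 to 4 in Apex1, and genes lower 0 to 2 in Apex1, the highest value of each being without Control replicate 3. In Apex1 EBs 11 to 29 genes were lower and 0 to 1 higher, and in Apex1 EBs + RA 7 to 20 were lower, with the fewest without Apex1 replicate 1. Genes with a less positive RA response numbered 1 to 5 in Neil1 (5 without Control replicate 3) and 0 to 3 in Apex1, and with a more positive one 13 to 22 in Neil2 (13 without Control replicate 2) and 9 to 22 in Apex1. Genes that fell with RA in Apex1 numbered 0 to 2. In Apex1 against Neil1 and Neil2, 0 to 1 genes were lower and 7 to 19 higher in EBs, and 9 to 22 higher in EBs + RA. The difference in RA response of Hoxa4 between Neil2 and control, not called, was -0.421 and ranged from -0.795 (without Neil2 replicate 2) to 2.095 (without Neil2 replicate 1). Of the called differences in RA response from control, 18 of 23 in Neil1 and 13 of 21 in Neil2 were kept in every such fit. Calls kept in every such fit numbered 26 of 27 in Neil1 EBs (Hoxc4 was lost), 20 of 25 in Neil2 EBs, 9 of 27 in Apex1 EBs, 27 of 30 in Neil1 EBs + RA, 31 of 33 in Neil2 EBs + RA and 16 of 30 in Apex1 EBs + RA.

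Scaling by total counts moved the median log2 fold change of all genes to 0.14 for the RA response in control, 0.32 in Neil1, 0.25 in Neil2 and 0.25 in Apex1. Over all genes the calls went from 3937 lower and 5020 higher to 2658 and 6479 for the RA response in Neil1, from 3656 and 3835 to 2342 and 5504 in Neil2, and from 3355 and 4120 to 2099 and 5492 in Apex1. The differences of these responses from control went from 2183 and 2763 to 1615 and 3384, from 1291 and 1225 to 997 and 1552, and from 960 and 1686 to 726 and 2050, and Apex1 mESCs from 1473 and 1278 to 923 and 2116. For single Hox genes this scaling left 580 results on their side of the threshold, 2 lost the call and 6 gained it. Genes with few counts in EBs of Neil1 and Neil2 limit how far a fold change can be read.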
